A study of Mus musculus with 8 samples.

Results

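DNA methylation was examined along the genes of the CD3 complex, Cd3e, Cd3d, Cd3g and Cd247, in splenic lymphocytes of C57BL/6J mice. The members were these 4 genes of 21755 protein-coding genes on the autosomes and X, each taken with 10 kb on either side. The windows of Cd3g, Cd3d and Cd3e run into each other and form a single Cd3 cluster (GRCm38, chr9:44959572-45019627, 60056 bp), and Cd247 lies on its own (chr1:165778681-165887277, 108597 bp). These windows hold 2073 CpGs of the reference, of which 1962 were listed with at least 5 reads in all 4 libraries, against 18684786 such CpGs in the whole series.

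Methylation, that is 5-methylcytosine (5mC), was read by whole-genome oxidative bisulfite sequencing, in which the oxidation step lets 5-hydroxymethylcytosine be read as unmodified cytosine, so a low level here means little 5mC. Resting CD43- B cells and naive CD4+CD62L+ T cells, the latter sorted as CD62L-high, CD44-low and CD25-negative after depletion of cells carrying CD8a, B220, DX5, CD11b, Ter-119, CD25 or the gamma-delta receptor, came from female and male mice of 6 to 8 weeks, with cells of several animals pooled. The labels name 8 samples in 4 groups of 2, but there is 1 file of values per group, which the labels of both samples name. The number in each file's name matches that of a single sample of its group, but no source used here says whether the other sample was included. The 4 libraries, B and T cells of each sex, were therefore the units of comparison, and no level below has a spread between replicates of its own; the intervals given are 95% Wilson intervals and cover counting error only. Read totals at CpGs ranged from 280919817 to 354634149 per library, and the median depth per CpG in the member windows from 15 to 18 reads.

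The CD3 proteins carry no antigen-binding part. CD3ε pairs with CD3γ and with CD3δ, and CD3ζ (the product of Cd247) forms a homodimer. These dimers and the T cell receptor chains make up the complex found at the cell surface. There the tyrosines in the cytoplasmic tails of the dimers are phosphorylated by Lck and bound by Zap70. The complex is a defining feature of T cells and is not made by B cells, whose receptor signals through CD79a and CD79b instead. Promoter methylation is in general low at genes in use, and DNA outside active promoters and enhancers is mostly methylated in mammalian somatic cells.

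The labels were checked at promoters of marker genes, each taken as the gene start with 1 kb before and after it. Of 7 B cell markers, 6 were called lower in B cells, and of 6 T cell markers, 4 were called lower in T cells (Cd4, Cd5, Cd6 and Lck). Of 3 natural killer markers and 4 myeloid markers none met the rule for a call given below, and their differences between B and T cells lay between -16.8 points (Lyz2) and 13 points (Itgam), with Lyz2, Itgam and Prf1 at an adjusted p under 0.05 (edgeR). Cd8a and Cd8b1 were called lower in T cells although CD8a-bearing cells had been depleted. At Cd8a female and male T cells were at 56.1% and 57.2% against 84.7% and 86.2% in B cells. At Cd8b1 they were at 29.2% and 29.7% against 88.5% and 91.6%.

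The stretches on which the results turn are given here as sequence, 5′ to 3′ on the strand of the gene, with every CpG in capitals. The first set holds the RefSeq promoters (250 bases before to 50 after the annotated start, GRCm38.p6), shown because most of their CpGs were methylated in B cells and all were unmethylated in T cells, with the exceptions in B cells given further on. They lie at chr9:44980382-44980681 (Cd3g, minus strand), chr9:44981536-44981835 (Cd3d, plus strand), chr9:45009562-45009861 (Cd3e, minus strand) and chr1:165788431-165788730 (Cd247, plus strand).
Cd3g: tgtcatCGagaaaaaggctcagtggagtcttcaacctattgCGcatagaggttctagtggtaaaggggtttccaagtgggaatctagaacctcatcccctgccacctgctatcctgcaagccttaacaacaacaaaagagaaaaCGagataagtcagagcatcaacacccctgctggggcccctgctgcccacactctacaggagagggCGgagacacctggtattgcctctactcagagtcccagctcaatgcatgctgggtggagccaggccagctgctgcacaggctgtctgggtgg
Cd3d: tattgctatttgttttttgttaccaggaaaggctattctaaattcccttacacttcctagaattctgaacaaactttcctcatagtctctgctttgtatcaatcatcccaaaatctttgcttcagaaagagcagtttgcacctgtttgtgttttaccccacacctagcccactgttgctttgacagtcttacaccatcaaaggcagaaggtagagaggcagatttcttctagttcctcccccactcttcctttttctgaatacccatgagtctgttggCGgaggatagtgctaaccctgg
Cd3e: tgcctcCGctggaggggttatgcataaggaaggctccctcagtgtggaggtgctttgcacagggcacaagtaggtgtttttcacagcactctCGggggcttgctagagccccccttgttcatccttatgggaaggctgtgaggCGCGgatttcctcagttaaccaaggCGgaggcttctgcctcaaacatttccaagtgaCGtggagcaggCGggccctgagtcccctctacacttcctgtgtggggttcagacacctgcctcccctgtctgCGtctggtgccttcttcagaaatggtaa
Cd247: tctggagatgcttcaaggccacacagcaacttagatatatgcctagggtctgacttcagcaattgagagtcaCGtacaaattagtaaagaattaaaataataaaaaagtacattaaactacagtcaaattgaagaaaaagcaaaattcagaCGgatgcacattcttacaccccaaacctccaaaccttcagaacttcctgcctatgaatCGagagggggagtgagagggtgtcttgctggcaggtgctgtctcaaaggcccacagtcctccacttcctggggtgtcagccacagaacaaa

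The Cd3d promoter holds 1 CpG, that of Cd247 3, that of Cd3g 4 and that of Cd3e 8, against a median of 7 over 32851 RefSeq promoters of the same length (quartiles 3 and 20). All 16 of these CpGs were at 0% in both T cell libraries. Motifs that T cell transcription factors are known to bind were searched on both strands. The E box CACCTG was in all 4 promoters and in 20.2% of all promoters, the ETS core ACTTCC in those of Cd3d, Cd3e and Cd247 and in 23.8% of all, the E box CAGCTG in that of Cd3g and in 16.3% of all, and the RUNX core TGTGGT in none of the 4 and in 16.8% of all. No match overlapped another. The matches describe these windows only.

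The second set holds a pair of stretches with low methylation in B cells as well as in T cells, shown because they interrupt the contrast between the cell types. The stretch downstream of Cd3e (chr9:44998240-44998520, minus strand, between Cd3d and Cd3e and outside both genes) holds 10 CpGs, and the end of Cd3d (chr9:44986101-44986341, plus strand, intron 4 and the coding part of exon 5) holds 8.
Downstream of Cd3e: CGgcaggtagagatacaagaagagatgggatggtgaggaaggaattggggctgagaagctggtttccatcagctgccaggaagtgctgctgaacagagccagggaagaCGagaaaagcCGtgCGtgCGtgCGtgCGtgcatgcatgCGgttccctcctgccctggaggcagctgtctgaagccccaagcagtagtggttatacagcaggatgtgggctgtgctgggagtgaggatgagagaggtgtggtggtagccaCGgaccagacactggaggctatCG
Cd3d intron 4 and exon 5: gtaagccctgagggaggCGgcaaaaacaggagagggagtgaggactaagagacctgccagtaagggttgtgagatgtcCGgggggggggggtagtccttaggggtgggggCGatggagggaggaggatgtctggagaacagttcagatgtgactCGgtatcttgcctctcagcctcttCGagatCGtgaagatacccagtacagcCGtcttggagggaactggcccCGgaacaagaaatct

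At their promoters all 4 members were methylated in B cells and nearly unmethylated in T cells of both sexes. Cd3d, which encodes CD3δ, was at 94.1% in female B cells, 94.9% in male B cells, 2.03% in female T cells and 2.76% in male T cells over 19 CpGs. Cd3g, which encodes CD3γ, was at 85.2%, 90.3%, 1.95% and 2.57% in the same order over 14 CpGs. Cd3e, which encodes CD3ε, was at 84.9%, 86.1%, 1.23% and 1.38% over 28 CpGs. Cd247 was at 86.5%, 84.9%, 0.566% and 1.04% over 39 CpGs. The lowest B cell library stood more than 80 points above the highest T cell library at every member, and the counting intervals of no B cell library and T cell library overlapped. The promoter windows of Cd3g and Cd3d overlap, since the genes lie head to head on opposite strands with 1354 bases between them, so their values are not separate measurements.

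Calls required both an adjusted p under 0.05 in edgeR's quasi-likelihood test, with Benjamini-Hochberg adjustment over all regions of the same kind, and 20 percentage points or more between the cell type means. By this rule 4 of 4 member promoters were called, all higher in B cells, where 1.37% of 20501 promoters were called in either direction and 0.956% as higher in B cells. The median B minus T difference of the members was 85.2 points, against 0.97 points over all promoters. In order of that difference among all promoters Cd3d stood at place 1, Cd3g at 2, Cd247 at 4 and Cd3e at 5. B minus T was 92.0 points in females and 92.1 in males at Cd3d, 83.3 and 87.8 at Cd3g, 83.7 and 84.7 at Cd3e, and 85.9 and 83.9 at Cd247, with adjusted p of 3.71e-175, 2.35e-135, 1.69e-175 and 4.84e-188 respectively (edgeR, 4 libraries). These p-values rest on a spread shared over all promoters. The adjusted p of the 4 lay between 0.00165 and 0.00194 with limma, and between 0.0132 and 0.0317 with edgeR when a library and, with it, the term for sex were left out.

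**Figure D1:**
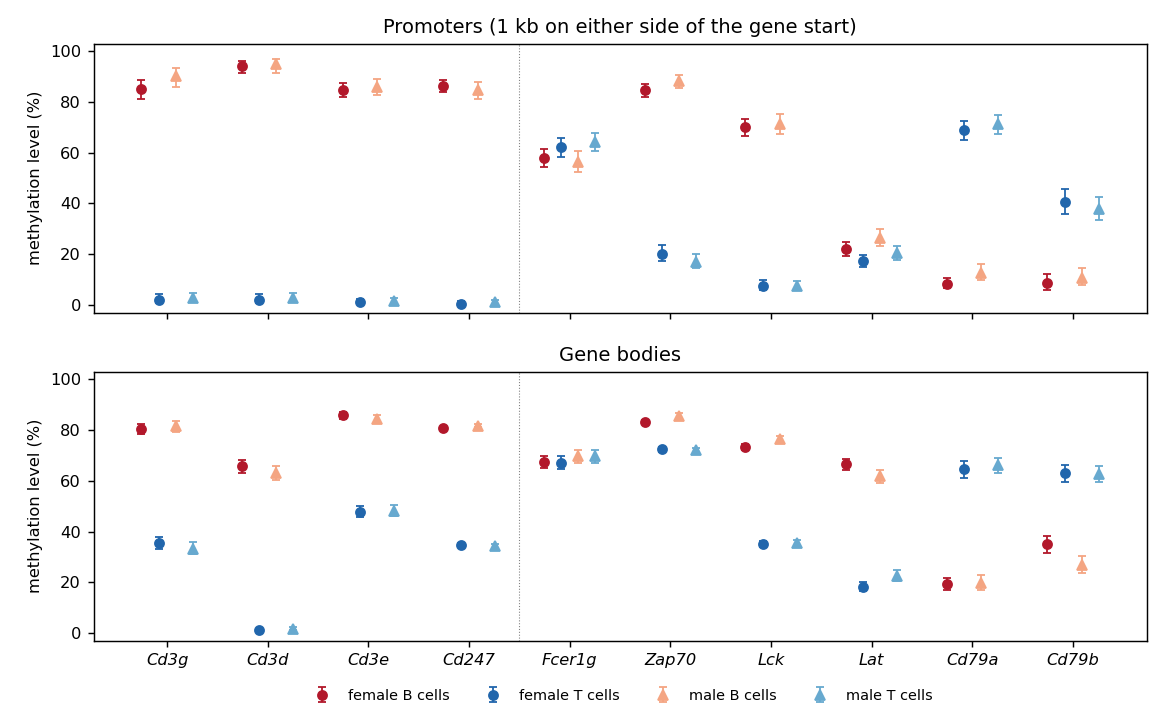
Methylation level (%) of promoters (upper panel) and whole gene bodies (lower panel) in the 4 libraries, with 95% Wilson intervals as bars, for the 4 members to the left of the dotted line and for 6 comparison genes to its right. At the member promoters the T cell libraries lie at or below 2.76% and the B cell libraries at or above 84.9%, while over the gene bodies only Cd3d stays near 0% in T cells (1.02% and 1.64%).

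Over whole gene bodies the members differed from each other far more than at their promoters. Cd3d was at 65.8% and 63.1% in B cells of females and males and at 1.02% and 1.64% in T cells, so that its body was close to unmethylated throughout in T cells and only partly methylated in B cells. Cd3g was at 80.4% and 81.5% in B cells against 35.5% and 33.3% in T cells, Cd247 at 80.7% and 81.7% against 34.6% and 34.2%, and Cd3e at 85.9% and 84.5% against 47.8% and 48.2%. All 4 bodies were called higher in B cells by edgeR, where 1.06% of 21139 gene bodies were called and 0.979% as higher in B cells. Their B minus T differences were 63.2 points (Cd3d, adjusted p 4.36e-14), 46.8 points (Cd247, 3.32e-16), 46.6 points (Cd3g, 2.29e-11) and 37.2 points (Cd3e, 4.19e-11). With limma the adjusted p of all 4 bodies was 0.0177. The median of the 4 was 46.7 points and that of all gene bodies 1.69 points. The body of Cd3g and that of Cd247 differed by similar amounts even though Cd247 is 88597 bp long and Cd3g 10860 bp.

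The Cd3 cluster was then followed from end to end, with a CpG taken as low in a cell type when its 2 libraries summed were under 50% methylated, and a low region as a run of at least 4 such CpGs in a row. A low region of T cells was called T-only where its summed level in B cells was 50% or more, so that it may still hold single CpGs or patches that are low in B cells. The borders were set on the values, so the regions are a description and were not tested. The cluster held 5 T-only regions, 15378 bp together and between 114 and 10631 bp each. The longest T-only region of the cluster ran from 44977079 to 44987709 on chromosome 9 (10631 bp, 105 CpGs), and held place 6 by length among 16857 such regions in the genome, whose median length was 298 bp. That place ranged from 6 to 21 over the other ways of setting the regions. It began 3352 bases into Cd3g, within its intron 1, crossed the 1354 bases between Cd3g and Cd3d, covered the whole of Cd3d and ended past it, 5923 bases from its start. A second T-only region covered the start of Cd3e, from 45007311 to 45011189 (3879 bp, 49 CpGs), from -1562 to 2316 bases relative to that start and thus into intron 2. Its level was 83.4% in female and 83.3% in male B cells, and 3.12% and 2.51% in T cells. B cells were lower at single CpGs within it, as at 45010391, 45010528 and 45010614 upstream of the start, where B cells of both sexes together were at 46.4%, 46.8% and 47.5%.

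**Figure D2:**
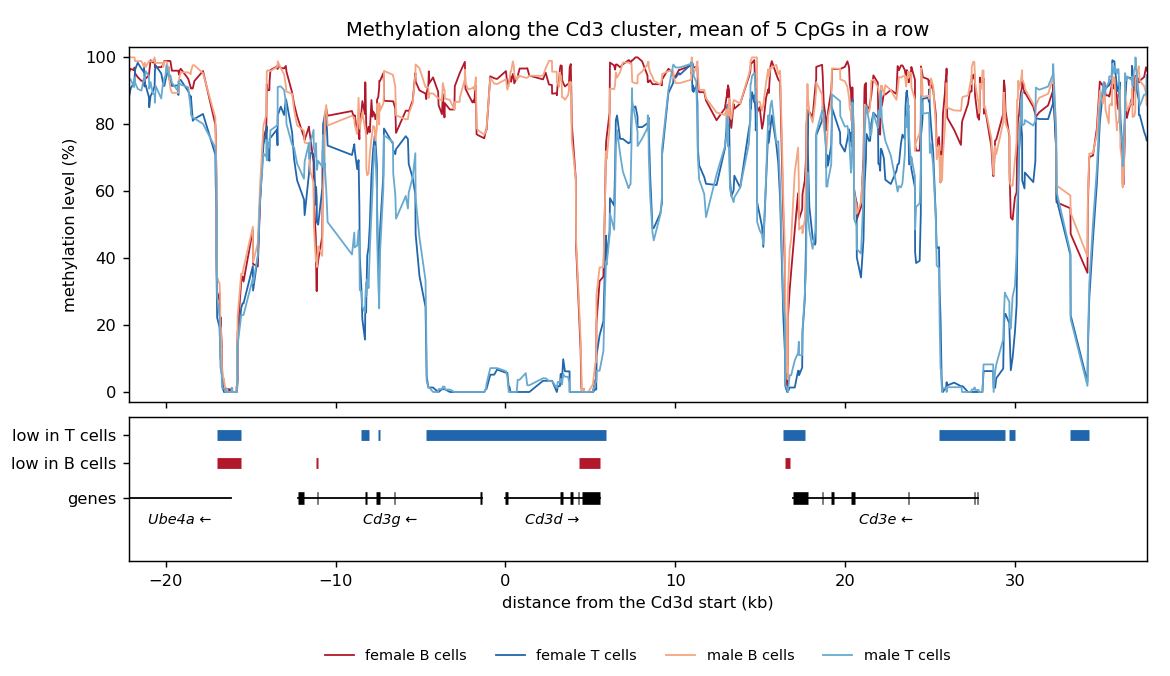
Methylation level (%, mean of 5 CpGs in a row) of the 4 libraries against distance from the Cd3d start in kb, above the low regions of T cells (blue bars), those of B cells (red bars) and the protein-coding genes with member exons as blocks. The T cell libraries fall to near 0% over 10631 bp from Cd3g intron 1 to past Cd3d and over 3879 bp at the start of Cd3e, and the B cell libraries stay well above them there except over the end of Cd3d.

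Within the longest region the B cells were not uniform. Of its 105 CpGs, 22 lay in a low region of B cells (44986118 to 44987329, 1212 bp) that starts in Cd3d intron 4 and takes in nearly all of exon 5, with the end of the coding sequence and the 3′ untranslated part. There female B cells were at 1.05% (0.408% to 2.66%), male B cells at 2.27% (1.15% to 4.41%), female T cells at 0.228% (0.0402% to 1.28%) and male T cells at 0.845% (0.288% to 2.45%). The other 83 CpGs were at 89.8% and 90.2% in B cells of females and males and at 2.34% and 2.12% in T cells. The patch held 1.82 CpGs per 100 bp and the rest of the region 0.881. In B cells the level thus dropped from 96.0% and 92.5% over exon 3 to 55.6% and 50% over intron 3 (2 CpGs), 2.78% and 6.67% over intron 4 (3 CpGs) and 0.867% and 1.86% over exon 5 (19 CpGs). In T cells the same parts were between 0% and 0.932%. The 1-kb tile from 44986001 was accordingly not called (0.801 points, edgeR adjusted p 0.123), while the tile before it differed by 87.2 points. Without this patch T-only low bases made up 4342 of the 5554 bp of Cd3d (78.2%).

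**Figure D3:**
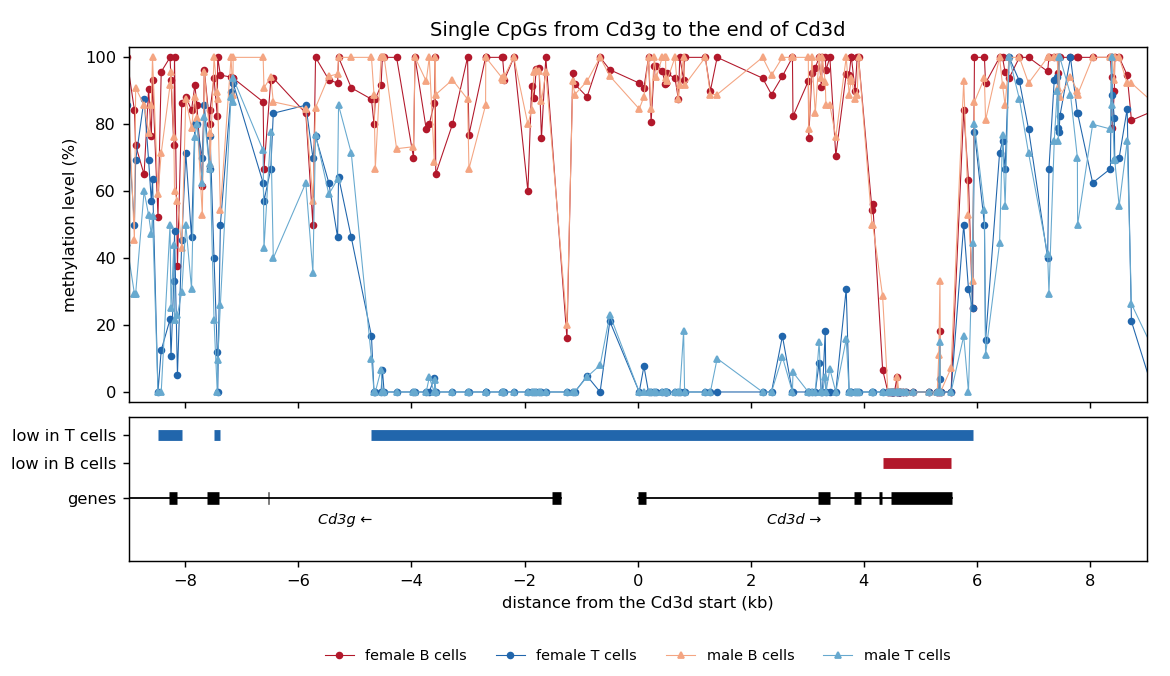
Methylation level (%) of single CpGs in the 4 libraries against distance from the Cd3d start in kb, with low regions and genes as in the plot of the whole cluster. B cells (red and orange) fall from above 80% to near 0% at the end of Cd3d, where the 22 CpGs of the shared patch lie, and to 16% and 20% at a single CpG between the genes.

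A single CpG in the gap between Cd3g and Cd3d also stood out. At 44980536, 105 bases upstream of the Cd3g start and within the printed promoter, B cells were at 16.0% of 25 reads in females and 20% of 10 reads in males, together 17.1% (8.10% to 32.7%), whereas the CpGs at 44980639 and 44980674 were at 95.2% and 92.0% in female B cells and at 92.9% and 88.9% in male B cells. The CpG nearer to the gene, at 44980471, was at 76% in female B cells and was not listed in male B cells. T cells were at 0% at all 4.

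The borders of the low regions differed in sharpness. At the Cd3g border, the 5 CpGs inside the region were at 88.9% and 93.3% in B cells and 4.11% and 2.47% in T cells, and the 5 CpGs outside at 95.7% and 94.4% in B cells and 60.3% and 70.3% in T cells. At the far border, past Cd3d, T cells were at 17.1% and 9.43% inside and 53.2% and 55.8% outside, and B cells, whose low patch takes in part of the CpGs inside, at 43.1% and 40.8% inside and 98.6% and 89.2% outside. At the border within Cd3e T cells were at 23.2% and 8.75% inside and 70.8% and 65.1% outside. B cells there were at 62.7% and 64.6% inside and 90.2% and 92.4% outside. Upstream of Cd3e the 5 CpGs outside, from 45011228 to 45011645, were at 15% and 15.7% in T cells and at 63.9% and 65% in B cells. All but the first of these lie in a further T-only run of 331 bp, which begins at 45011453. Their low T cell level thus follows largely from how regions were set, and does not show how sharp that border was. Just beyond the other borders T cells were below B cells of the same sex.

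Other parts of the cluster, though not all of them, were intermediate in T cells or held short T-only regions. Over Cd3g intron 2, T cells were at 73.1% and 64.5% and B cells at 88.8% and 90.9%. Cd3g exon 3 was at 36.0% and 35.0% in T cells against 87.9% and 84.2% in B cells. Its exon 4 was at 28.2% and 35.7% against 90.6% and 81.8%. Exon 4 lay in a T-only region (44973304 to 44973726), at 22.2% and 24.8% in T cells and 77.3% and 72.4% in B cells. Part of exon 3 lay in another (44974295 to 44974408), at 25.5% and 14.9% against 93% and 86.8%. Between Cd3d and Cd3e, T cells were at 63.1% and 65.5% and B cells at 81.0% and 85.6% (108 CpGs). That stretch takes in the ends of low regions of T cells on both sides. Clear of them, the tested tiles from 44988001 to 44997001 ranged in T cells from 57.9% and 57.7% (from 44995001) to 94.4% and 97.2% (from 44992001). Over Cd3e intron 3 T cells were at 67.1% and 68.9% and B cells at 90.5% and 88.3%. Over Cd3e intron 4 T cells were at 68.4% and 74.4% and B cells at 86.6% and 85.6%. T cells were highly methylated in other places, as in the tile from 44991001 between Cd3d and Cd3e (93.3% and 96.6% in T cells, 95.2% and 94% in B cells) and the tile from 45017001 upstream of Cd3e (93% and 93.7% against 90.3% and 87.4%). The last part of Cd3g went the other way in value. Over its intron 6 B cells were at 56.7% and 59.0% and T cells at 66.9% and 73.6%, and the tile from 44970001 differed by -15.1 points (edgeR adjusted p 0.0205), under the 20 points of a call. A run of 5 CpGs there (44970623 to 44970761) was low in B cells alone, at 31% and 40.3% against 58.8% and 67.7% in T cells.

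The stretch printed above as lying downstream of Cd3e was low in both cell types. Its 10 CpGs were at 3.67% (1.87% to 7.07%) in female B cells, 10.4% (5.89% to 17.6%) in male B cells, 0% in female T cells and 0.625% in male T cells. In T cells the low region around it was wider, from 44998143 to 44999410 (1268 bp, 19 CpGs), and took in the end of Cd3e. Over that wider region B cells were at 24.6% and 35.8% and T cells at 2.37% and 4.26%. At the ends of both Cd3d and Cd3e the low stretch of B cells thus lay within a longer low region of T cells.

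Toward the ends of the cluster most tiles were not called. Upstream of Cd3e, however, the tile from 45016001 was called (34.4 points, edgeR adjusted p 9.40e-10). The tile was at 77.2% and 76% in B cells and 35.8% and 48.6% in T cells. A low region of T cells, from 45015047 to 45016159 (1113 bp, 5 CpGs), ended within this tile. That region was at 2.78% and 1.89% in T cells and 40.9% and 42.4% in B cells, so it was not T-only. The Ube4a promoter, next to Cd3g, was at 10.5% and 12.2% in B cells of females and males and at 8.01% and 6.54% in T cells and was not called (4.11 points, adjusted p 0.0408 by edgeR), and its low region was identical in both cell types (44964812 to 44966231, 55 CpGs). The part of the Ube4a body inside the window, which takes in part of that low region, was at 50.7% and 51.4% in B cells and 49.9% and 48.1% in T cells. The whole Ube4a body was at 86.6% and 87.6% in B cells and 83.5% and 82.2% in T cells. Atp5l and Mpzl2, the next protein-coding genes beyond the window, were not called at their promoters (1.11 and -3.61 points) or bodies (10.8 and -0.93 points, edgeR adjusted p 0.000742 and 0.782).

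Of 56 tested 1-kb tiles of the Cd3 cluster, 25 were called higher in B cells and none higher in T cells, where 3.17% of 1530528 tiles in the genome were called and 2.36% as higher in B cells. The median difference of the 56 was 18.7 points and that of all tiles 0.788 points. The tile with the largest difference, from 44982001 in Cd3d intron 1, was at 94.1% and 95.8% in B cells and at 0% and 0.714% in T cells (edgeR adjusted p 4.11e-149). Among single CpGs of the cluster, 110 of 632 (17.4%) were under 20% in T cells and at 80% or more in B cells, 88 (13.9%) were under 20% in both and none was under 20% in B cells and at 80% or more in T cells. Over all CpGs of the series those shares were 0.306%, 8.83% and 0.123%.

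Cd247 was low in T cells over its start and in many separate stretches of its long intron 1, and not over its later exons. The region at the start ran from 165787915 to 165794683 on chromosome 1 (6769 bp, 126 CpGs), from 766 bases upstream to 6002 bases into the gene. It was at 91.6% and 91.0% in B cells of females and males and at 2.31% and 2.24% in T cells. In all 27 T-only regions lay in the window, 30624 bp together and between 107 and 6769 bp each, and 29858 of these bases fell within the gene, 33.7% of its length. The longest came to 16125 bp with 70% as the low level and to 13493 bp with 1 higher CpG allowed. By bases in T-only regions Cd247 stood at place 5 of 21755 genes, Cd3d at 142, Cd3g at 236 and Cd3e at 514. This order favours long genes, and 4521 genes (20.8%) had any such bases, with a median of 495 bp.

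**Figure D4:**
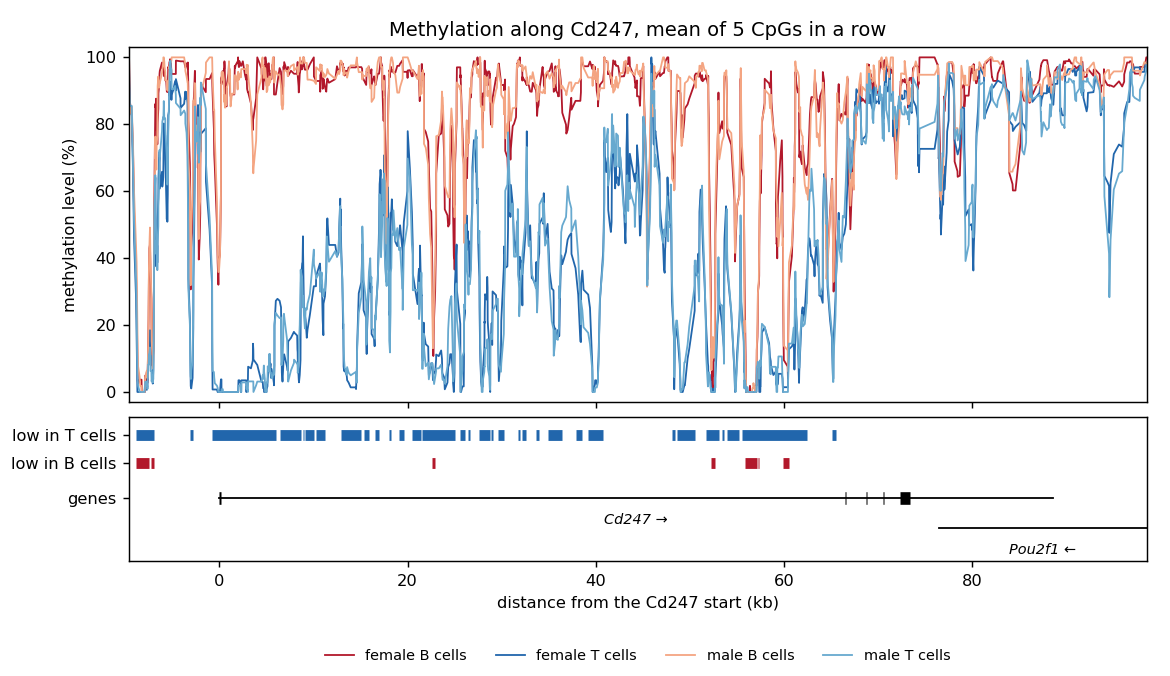
Methylation level (%, mean of 5 CpGs in a row) of the 4 libraries along Cd247 against distance from its start in kb, with low regions and genes as in the plots of the Cd3 cluster. T cells are low over the 10 kb from the start and in many stretches of intron 1, B cells dip with them at a few short cores of intron 1, and the libraries lie closer together over most, though not all, of the stretch beyond 70 kb.

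In steps of 10 kb from the start of Cd247, the B minus T difference was 87.6 points from 0 to 10 kb, 61.6 from 10 to 20 kb, 63.2 from 20 to 30 kb, 55.0 from 30 to 40 kb, 40.8 from 40 to 50 kb, 29.7 from 50 to 60 kb, 24.4 from 60 to 70 kb, 8.23 from 70 to 80 kb and 9.17 over the rest. The T cell level did not rise steadily along the way. It was 5.49% and 6.10% in the 10 kb at the start, 47.4% and 50.9% from 40 to 50 kb, and 9.15% and 9.89% from 50 to 60 kb, where B cells were also low at 38.4% and 40.1%. From 70 to 80 kb T cells were at 82.5% and 82.6% and B cells at 90.8% in both sexes. A pair of tiles beyond 70 kb was still called. The tile from 165868001 was at 97.3% and 95.2% in B cells and 45.5% and 52.8% in T cells (47.1 points, edgeR adjusted p 1.20e-29). The tile from 165883001, past Cd247 and within Pou2f1, was at 91.3% and 93.5% in B cells and 35.8% and 26.2% in T cells (61.4 points, adjusted p 5.18e-16). Intron 1 as a whole (66279 bp, 880 CpGs) was at 78.5% and 79.9% in B cells and 22.6% and 23.2% in T cells. Over exon 8 B cells were at 89.6% and 93.2% and T cells at 89.4% and 84.1% (13 CpGs).

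Intron 1 of Cd247 also held stretches that were low in B cells. The longest low region of T cells in the window (165844172 to 165851096, 6925 bp, 128 CpGs) was at 39.6% and 39.1% in B cells as a whole, so it was not T-only. Of its CpGs 72 lay in low regions of B cells, at 5.72% and 5.29% there against 0.491% and 0.549% in T cells, and the other 56 were at 69.5% and 72.9% in B cells against 11.7% and 14.0% in T cells. The core at 165844477 to 165845846 (1370 bp, 60 CpGs) was at 2.2% and 1.72% in B cells. Other low cores of B cells included those at 165811302 to 165811606 (10.4% and 13.4%), 165840859 to 165841366 (8.95% and 14.5%) and 165848562 to 165849190 (11.5% and 13.6%). In the window as a whole the low regions of B cells that were also low in T cells held 3.32 CpGs per 100 bp. The T-only regions held 1.39. In the Cd3 cluster these values were 2.99 and 1.11. Of the 87 CpGs behind the 2.99, however, 55 lay in the low region at the Ube4a promoter, and the patch at the end of Cd3d held 1.82. The 3.32 likewise takes in shared low regions upstream of Cd247.

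At the Cd247 start itself 3 CpGs in a row were low in B cells within DNA that was otherwise methylated. The CpG 99 bases upstream was at 0% in 11 reads of female and 5 reads of male B cells, which together allow up to 19.4%. The CpG 41 bases upstream was at 10.0% and 0% (together 1 of 16 reads, 6.25%, interval 1.11% to 28.3%), and that 70 bases downstream at 7.14% and 22.2% (together 3 of 23 reads, 13%, interval 4.54% to 32.1%). The upstream pair are the last 2 CpGs of the printed Cd247 promoter. The CpGs on either side, at 165788503 and 165788852, were at 81.2% and 57.1% and at 100% and 100% in B cells. Being 3 in number they did not make a low region, and the promoter window around them stood at 86.5% and 84.9%. T cells were at 0% at all 5.

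**Figure D5:**
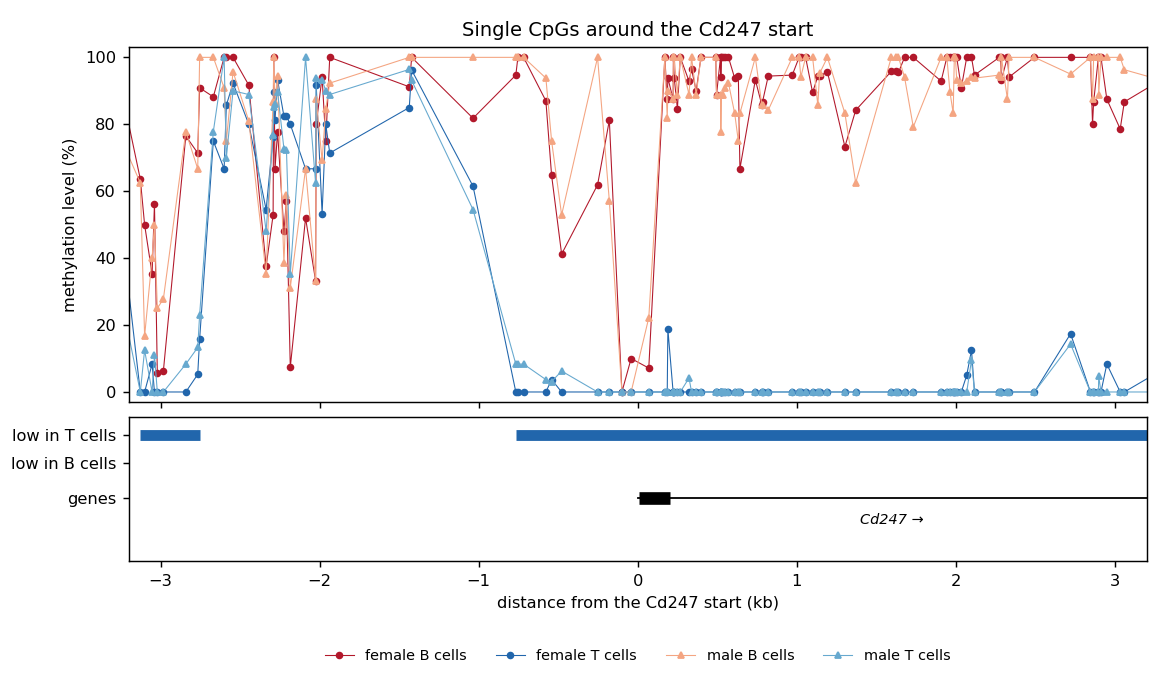
Methylation level (%) of single CpGs in the 4 libraries around the Cd247 start, against distance from the start in kb, with low regions and genes below. The 3 CpGs from 99 bases upstream to 70 bases downstream are at or below 22.2% in B cells, and the CpGs from 171 bases downstream on are methylated in B cells and near 0% in T cells.

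The border upstream of Cd247 was sharp, and that within the gene could not be judged in the same way. Upstream, T cells were at 1.28% and 5.26% over the 5 CpGs inside and at 81.8% and 88.5% over the 5 outside, and B cells between 89.9% and 94.5% on both sides. Within the gene, T cells were at 6.00% and 7.53% inside and at 17.0% and 15.7% over the 5 CpGs outside, from 165794855 to 165795320. All but the first of these lie in a further T-only region of 2258 bp, which begins at 165795085. Their low T cell level thus follows largely from how regions were set, and does not show how sharp this border was. Of 100 tested tiles of the window, 66 were called higher in B cells and none higher in T cells by edgeR, with a median difference of 40.7 points, against the 3.17% of all tiles called and 2.36% higher in B cells. The tile from 165789001 was at 93.5% and 91.5% in B cells and at 0% and 0.176% in T cells (adjusted p 8.54e-209). Of 1330 CpGs, 293 (22.0%) were under 20% in T cells and at 80% or more in B cells, against 0.306% of all CpGs. Upstream of the gene, the low region over the start of the transcript Gm16565 was shared (165779840 to 165781751, 8.85% and 10.2% in B cells, 3.59% and 3.70% in T cells). The 10 kb upstream were at 61% and 58.7% in B cells and 39.5% and 43.3% in T cells (155 CpGs). Tiles from 165782001 (87.9% and 92.5% against 64% and 63.9%) and 165785001 (72.1% and 68.4% against 35.1% and 34.8%) were called higher in B cells. The tile from 165786001, nearer the gene, was not called (66.2% and 74.5% against 76.9% and 78.3%). Pou2f1, which overlaps the end of Cd247 on the opposite strand, was not called at its promoter (0.0945% and 0.618% in B cells, 0.0690% and 0% in T cells) or over its body, nor were Creg1 and Dusp27 beyond the window.

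The sexes were compared within the same data. No member tile was called between females and males by edgeR (0 of 56 and 0 of 100, with 3 and 5 at an unadjusted p under 0.05, and 0 by limma), where 0.0868% of all tiles were called. The contrast of B minus T between the sexes called 0 of 56 and 0 of 100, with 0 in both at an unadjusted p under 0.05 and 0 by limma, where 0.000784% of all tiles were called. The size rule is strict for this contrast, since it is applied to the mean of 2 libraries minus the mean of the other 2, and a given difference of B minus T between the sexes counts there at a smaller size. The libraries of a sex also served to set borders that were then read in the other sex. T-only regions found in the female libraries alone numbered 4 in the cluster and 27 at Cd247, and all 31 were lower in T cells than in B cells in the male libraries, by 20.8 to 88.8 points. Those found in the male libraries alone numbered 4 and 30. All 34 were lower in T cells in the female libraries, by 30.9 to 89.3 points. The median tile difference was 18.7 points in the cluster and 40.7 points at Cd247. These signs therefore do not show whether the borders held in the other sex. The region at the Cd247 start had identical borders in both sexes. Some other Cd247 regions did too, as that from 165837248 to 165839180, but most did not. The female region from 165797772 to 165799907, for example, began at 165798961 in males. That from 165851526 to 165851907 in females had no counterpart in males. The region over Cd3g and Cd3d ran from 44976722 to 44987329 in females and from 44977079 to 44987709 in males, and that over the Cd3e start from 45007404 to 45011189 in females and from 45007311 to 45011783 in males.

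The members were set beside a list of other genes of T cell receptor signalling. The list shares Cd4, Cd5, Cd6, Cd28, Lck, Cd8a and Cd8b1 with the markers above, and all of these but Cd28 were called at their promoters. Of the 31 promoters in the list, 16 were called, all higher in B cells and by 25.4 to 85.0 points, and the median of the 31 was 25.4 points, where 1.37% of all promoters were called. Among those with the largest differences were Themis (85.0 points), which is needed in thymic selection, and Trat1 (72.7 points), an adaptor associated with the receptor. Zap70, the kinase that binds phosphorylated CD3 tails, was at 84.8% and 88.4% in B cells and 20.2% and 17.0% in T cells. Lck, which phosphorylates those tails, was at 70.2% and 71.5% against 7.65% and 7.49%. Lat, the adaptor phosphorylated by Zap70, was not called at its promoter (22.0% and 26.4% in B cells, 17.3% and 20.3% in T cells, adjusted p 0.164) but was over its body, by 43.9 points. Of the 31 gene bodies 17 were called, all higher in B cells, among the largest differences those of Cd2 (63.7 points) and Lat, and 11 genes were called at both, where 1.06% of all gene bodies were called. The members had larger promoter differences than any of the 31 but Themis, which rests on 6 CpGs and lay between Cd247 (84.9 points) and Cd3g (85.5 points).

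Fcer1g encodes the Fc receptor gamma chain, a relative of CD3ζ that can take its place in some receptors. Its promoter was at 57.8% and 56.5% in B cells and at 62.2% and 64.3% in T cells and was not called (-6.06 points, edgeR adjusted p 0.266), and its body differed by 0.0993 points. The B cell counterparts of the CD3 chains were called the other way. Cd79a was at 8.36% and 12.7% in B cells and 68.8% and 71.4% in T cells at its promoter, and Cd79b at 8.59% and 10.8% against 40.7% and 37.9%. Neither had T-only low bases, while B-only low regions covered 2277 bp of Cd79a and 340 bp of Cd79b.

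Among the promoters whose 4 library levels lay nearest to the mean of the members (87.7% in female B, 1.44% in female T, 89.1% in male B and 1.94% in male T cells) were, by Euclidean distance over the 4 libraries, Themis (6.19 points), Slfn1 (13.1 points), Ms4a4b (19.9 points) and Ms4a6b (20 points). Themis was at 86.4% and 83.5% in B cells and at 0% in both T cell libraries. Ms4a4b was at 94.9% and 96.5% in B cells and at 17.3% and 8.05% in T cells.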

How the data were processed

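WGoxBS was carried out on sorted splenic B and T cells of C57BL/6J mice. The authors deposited, per CpG with at least 5 reads, the methylation level as a fraction and the read count, with every position given on the plus strand. The submitters' processing notes name Trim Galore, FastQC, Bismark 0.13.1 and mm10, and give no further roles here. Multiplied by the depth, every deposited fraction gave back whole methylated reads, within the rounding up of its last decimal, and these were used. Positions were checked to lie on CG of GRCm38 on chromosomes 1 and 9.

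Only CpGs with a value in every library were used, and their reads were added up within 1-kb tiles, promoters and gene bodies (GENCODE M21), keeping regions with at least 5 CpGs and 20 reads in each library. Methylated and unmethylated counts were fitted with edgeR 4.0.16 in R 4.3.3, with terms for library, methylation, and cell type and sex on methylation. A single residual degree of freedom remained, so the spread was shared over regions. The sex by cell type contrast replaced the sex term, and its difference is the mean of 2 groups minus the mean of the other 2. Where groups were compared, p-values measure only the spread between these libraries, which may be technical. Limma 3.58.1, other filters, tile sizes and left-out libraries served as alternatives, and the fit was tested on simulated data. The genes named were the 4 members, their neighbours, a list of receptor signalling genes with values for the largest called differences and for Zap70, Lck, Lat and Fcer1g, the B cell counterparts, and the 5 nearest promoters, of which 1 gene is not reported here. The members and lists were chosen with earlier results of these data known.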

Additional observations from a re-analysis of the deposited data

How the results depend on the processing

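All 4 member promoters and all 4 member gene bodies kept their direction in the 36 promoter and 36 gene body values from the alternatives. They stayed called in those that used all 4 libraries. With no minimum difference, with limma and with at least 3 CpGs the level differences were those of the main fit, so the direction could not change. A call could not be lost with no minimum difference. Leaving out a library leaves its cell type with a single library, which is then assumed to vary like the other libraries, with the spread shared over regions; the term for sex was then dropped too, so these values differ from the others by both changes. Member tiles called between B and T cells numbered 24 to 28 in the Cd3 cluster and 66 to 67 at Cd247 with a library left out, 42 in the cluster with no minimum difference, and 19 and 63 with limma, against 25 and 66. Over all regions, the tiles called came to 24206 with 2-kb tiles, 30670 with limma and 143037 with no minimum difference, against 48497, and to 49012 to 49264 with a library left out. Promoters called over the genome came to 4078 with no minimum difference against 280, and to 35 to 162 with a library left out: leaving out the B cell library gave 162 (female) and 79 (male), and leaving out the T cell library 35 and 40. Gene bodies called came to 6576 with no minimum difference against 225. Between the sexes 71 tiles were called with limma against 1329, and for B minus T between the sexes 0 with limma and 132 with no minimum difference against 12. The longest T-only region at Cd247 came to 16125 bp with 70% as the low level and 13493 bp with 1 higher CpG allowed, against 6769 bp, and that of the Cd3 cluster ranged from 10251 to 10988 bp over the settings tried. The unweighted mean over CpGs moved the 32 member levels by at most 5 points. No paired analysis was possible because the groups share no replicate number. With 4 libraries and a median of 15 to 18 reads per CpG, single CpG levels carry wide intervals; the causes of these changes were not tested.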
